A study of Mus musculus with 4 samples.

Results

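Cd209a dendritic cells are a rare class of antigen-presenting cells in brown fat of mice, here in its stromal vascular fraction, the mix of immune, stromal and vascular cells left once adipocytes are removed. They were selected on their own RNA, and 67 of 28887 quality-passing cells in 4 libraries met the rule. A cell was kept if it held more than 250 but fewer than 6000 genes, more than 500 but fewer than 30000 UMIs (unique molecular identifiers, each standing for 1 captured RNA molecule) and under 15% mitochondrial UMIs. It then had to carry at least 2 UMIs of Cd209a and no UMI of Xcr1 or Clec9a, the markers of type 1 dendritic cells. The MHC class II genes H2-Aa, H2-Ab1, H2-Eb1 and Cd74 had to sum to at least 30 per 10000 UMIs. The C1q genes C1qa, C1qb and C1qc, which mark macrophages, had to sum to under 5, Ear2 with Lyz1 to under 5, and the stromal genes Col1a1, Col1a2, Col3a1, Dcn and Gsn to under 30 per 10000 UMIs. The levels of these genes were chosen by the rule and are given only as a description.

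Droplet-based 3′ single-cell RNA-seq was run on brown adipose tissue of male mice, with 1 library per group and tissue of 3 mice pooled in each. The groups were wild type (WT) C57BL6/J mice aged 10 weeks, db/db mice aged 8 and 16 weeks, and wild type C57BL6/J mice on a high-fat diet (HFD). The db/db mice (B6.BKS(D)-Leprdb/J, db/db 8w and 16w in the plots) carry a mutation of the leptin receptor gene Lepr in every cell. The label of the HFD library gives an age of 10 weeks. The study's methods start that diet at 10 weeks of age and give it for 10 weeks. The mice were fasted before tissue was taken, and the suspension was loaded after a cell sort whose gate is not described in the sources used here. Since each group held 1 library, no difference between groups has a replicate check, and mouse-to-mouse spread, age, strain supplier and library cannot be told apart from genotype or diet.

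Conventional dendritic cells take up antigen in tissues and present it to T cells. Type 1 cells depend on IRF8 and specialise in cross-presentation to CD8 T cells, while type 2 cells carry CD11b, SIRPα and C-type lectins such as those encoded by Mgl2 and Clec10a, depend in part on IRF4 and KLF4, and mainly prime CD4 T cells. On maturation both kinds express CCR7, the chemokine receptor that guides them to lymph nodes. Cd209a encodes a mouse homologue of the human lectin DC-SIGN, and lies at chr8:3743397-3748984 on the minus strand of GRCm38, with 7 exons in its transcript.

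The cell name was checked against genes outside the rule. Flt3, the growth factor receptor of the dendritic cell lineage, Zbtb46, a transcription factor of conventional dendritic cells, or Kmo was seen in 7 of 11 WT, 5 of 17 8-week db/db, 1 of 3 16-week db/db and 17 of 36 HFD members. When every cell was thinned to 2000 UMIs, so that depth was equal, these became 3 of 11, 3 of 15, 0 of 3 and 16 of 36 members, against 3.31%, 1.57%, 0.940% and 1.81% of MHC-II high macrophages, and 2 8-week db/db members were too shallow to thin. Thinning, here and below, was 1 random draw per class and library. Counts that rest on few UMIs per cell can differ in another draw. Taken singly and before thinning, Flt3 was seen in 4, 1, 1 and 9 members and Zbtb46 in 7, 4, 0 and 4. Mgl2 or Clec10a was seen in 10 of 11, 13 of 17, 3 of 3 and 30 of 36 members. At least 1 of the 3 lineage genes and at least 1 of these 2 lectins were found together in 26 of the 67 members, the lectins alone in 30, the lineage genes alone in 4 and neither in 7. Ccr2, the monocyte and type 2 dendritic cell chemokine receptor, was seen in 11 of 11, 7 of 17, 2 of 3 and 29 of 36 members. The name therefore rests on lineage genes in fewer than 1 member in 2, and it was weakest in the db/db libraries, where 8 of 17 members at 8 weeks also held a UMI of Fcgr1, Mertk, Ms4a7 or Pf4, genes of macrophages and monocyte-derived cells, against 0 of 11 in WT, 0 of 3 in 16-week db/db and 10 of 36 in HFD.

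Depth and cell quality differed between libraries. Members held a median of 11822 UMIs in WT (lowest 4061, highest 17163), 6488 in 8-week db/db (1195 to 20577), 4584 in 16-week db/db (4017 to 7849) and 4170.5 in HFD (3255 to 8311), and their UMIs summed to 121211, 131589, 16450 and 164783. One UMI was therefore worth 8.25, 7.60, 60.8 and 6.07 CPM, the counts scaled to a library's member sum of 1000000. This scale is used for every level of members below, and levels of each other class are scaled to that class's own sum. Median mitochondrial UMIs were 2.21%, 2.98%, 0.822% and 11.3%, and 68.5% of HFD barcodes lay over the mitochondrial limit against 28.0% in WT, 35.6% in 8-week db/db and 1.04% in 16-week db/db. The libraries shared 16 to 97 barcodes per pair, and no member's barcode was shared. A doublet caller marked 5 HFD members and none of the others, and these 5 were kept. The study states that all its mice were male, yet Xist, a marker of female cells, stood at 134 CPM in macrophages and 403 CPM in T cells of the 16-week db/db library against at most 0.111 CPM in macrophages and 0 in T cells of the others. Its 3 members held no UMI of Xist and none of the Y-linked Ddx3y, which stood at 107, 160 and 212 CPM in WT, 8-week db/db and HFD members. The 16-week db/db values therefore rest on 3 cells of a library that went against its stated sex, and the other 3 libraries carry the comparisons below.

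The edge of the rule ran through sparse counts. Members held a median of 10 Cd209a UMIs in WT, 3 in 8-week db/db, 2 in 16-week db/db and 3 in HFD, with maxima of 21, 10, 3 and 9. Just inside the limit, 1, 6, 2 and 9 members had exactly 2 UMIs, and just outside it 2, 10, 6 and 22 cells that met every other limit had exactly 1. For MHC class II the lowest member held 61.8 per 10000 UMIs and the nearest cell left out by that limit alone 28.4. For C1q the highest member held 4.98 and the nearest of 90 cells left out 5.64, for Ear2 with Lyz1 3.45 and 5.13, and for the stromal genes 23.7 and 43.9. Cells that carried Cd209a were mostly C1q-positive in WT and 8-week db/db, but not in HFD. At least 2 Cd209a UMIs were held by 101, 159, 8 and 59 quality-passing cells. Of these, 80, 135, 4 and 8 had C1q UMIs at or above the limit.

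Cd209a dendritic cells were most frequent in the HFD library. They made up 0.185% of quality-passing cells in WT (11 of 5944), 0.146% in 8-week db/db (17 of 11648), 0.0514% in 16-week db/db (3 of 5833) and 0.659% in HFD (36 of 5462). The exact 95% binomial intervals were 0.0924% to 0.331%, 0.0850% to 0.234%, 0.0106% to 0.150% and 0.462% to 0.911%, and these, like every interval below, cover counting error only. Only the HFD interval lay clear of the other 3. The share in HFD was 3.56 times that in WT (1.77 to 7.76), 4.52 times that in 8-week db/db (2.47 to 8.57) and 12.8 times that in 16-week db/db (4.05 to 65.0). With no limit on the mitochondrial share, which left 17410 in place of 5462 HFD cells, the shares were 0.146% in WT (11 of 7559) and 0.270% in HFD (47 of 17410), and the counting interval of the HFD to WT ratio then included equal shares. Between 8-week db/db and WT the ratio was 0.789 (0.348 to 1.86), and between 16-week db/db and WT it was 0.278 (0.0498 to 1.05), so neither db/db library could be told from WT by counting error.

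That order depended on what the cells were counted against. Of cells with a UMI of Ptprc, the CD45 gene of all leukocytes, members were 10 of 1087 in WT (0.920%), 16 of 3435 in 8-week db/db (0.466%), 3 of 1606 in 16-week db/db (0.187%) and 35 of 2414 in HFD (1.45%), an HFD to WT ratio of 1.58 (0.764 to 3.57) and a 16-week db/db to WT ratio of 0.203 (0.0359 to 0.789). Of cells with high MHC class II and low C1q that met every limit other than those on Cd209a, Xcr1 and Clec9a, members were 17.2% of 64, 6.32% of 269, 1.29% of 232 and 12.4% of 290. On that base the HFD to WT ratio was 0.722 (0.360 to 1.57), while 8-week db/db stood at 0.368 times WT (0.162 to 0.868) and 16-week db/db at 0.0752 times (0.0135 to 0.285). The excess in HFD was thus present over all cells and over db/db, and not among the C1q-low, MHC class II high cells of HFD and WT. Cells with Cd209a but past the mitochondrial limit added 11 HFD barcodes of 11948, or 0.0921% (0.0460% to 0.165%), and none in the other libraries, where a count of 0 allows up to 0.186%, 0.0487% and 5.45%.

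**Figure D1:**
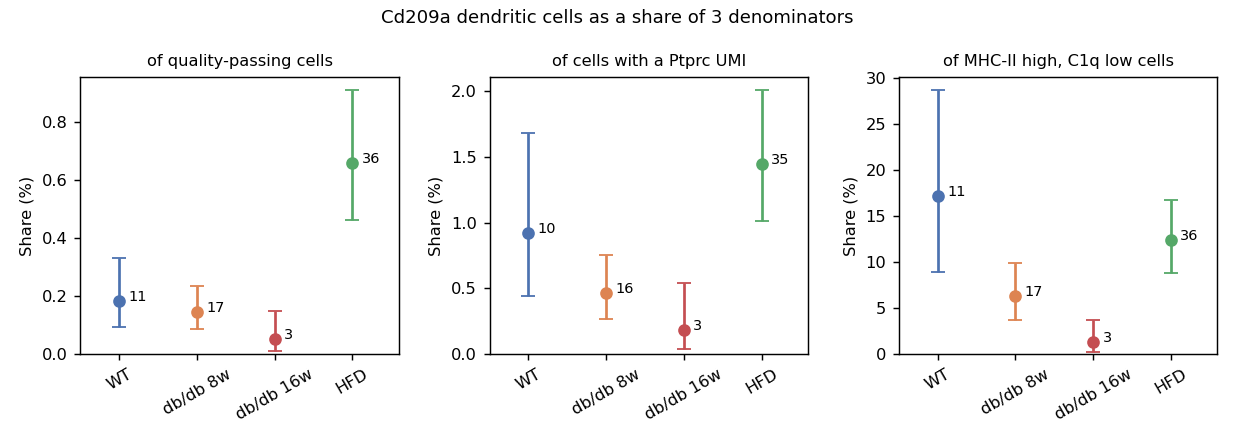
Share of Cd209a dendritic cells in each library, in percent, of quality-passing cells (left), of cells with a Ptprc UMI (middle) and of cells with high MHC class II and low C1q (right); points are shares, bars exact 95% binomial intervals, and the printed number is the count of members. HFD was highest of the 4 libraries over all cells (0.659%) and over Ptprc cells (1.45%), but WT was highest on the right (17.2% against 12.4%).

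Type 1 dendritic cells, taken as cells with at least 2 UMIs of Xcr1 with Clec9a under the other limits and with no Cd209a UMI, numbered 8, 23, 9 and 44, or 0.135%, 0.197%, 0.154% and 0.806% of quality-passing cells. Cd209a cells were 57.9% of both classes together in WT (33.5% to 79.7%), 42.5% in 8-week db/db (27.0% to 59.1%), 25% in 16-week db/db (5.49% to 57.2%) and 45% in HFD (33.8% to 56.5%). All 4 intervals overlapped, and type 1 cells, like Cd209a cells, made up their highest share of cells in the HFD library. MHC-II high macrophages were also most frequent there, at 10.0%, 11.4%, 6.70% and 25.5% of quality-passing cells. Monocytes made up 0.185%, 0.446%, 0.857% and 0.769%. A higher share in HFD than in WT was thus not limited to dendritic cells.

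The HFD library, with the most members, was used to set the members beside 3 neighbouring classes, counting a gene as past the limit at 2-fold, with 10 CPM added to each level. Against 44 type 1 dendritic cells, 8.97% of 2787 genes with enough UMIs were at least 2-fold higher in Cd209a cells and 8.36% at least 2-fold lower. Of 17 type 2 dendritic cell genes, 10 were measured and 7 were higher and none lower, with a median log2 ratio of 2.41. Of 11 measured type 1 genes outside the rule, 9 were lower and none higher, with a median of -3.27. Both counts lay far from the background shares, although the lists were drawn up with earlier results of these data known. The classes had also been split on Cd209a, Xcr1 and Clec9a, so the counts are not an independent check.

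Itgam, the CD11b gene, stood at 272, 205, 60.8 and 364 CPM in WT, 8-week db/db, 16-week db/db and HFD members and at 0, 12.9, 22.5 and 7.68 CPM in type 1 cells. Zeb2, a transcription factor of type 2 dendritic cells and monocytes, stood at 825, 942, 547 and 795 CPM against 9.22, 19.3, 0 and 26.9 CPM. Irf8, the type 1 lineage factor, ran the other way, at 8.25, 7.60, 0 and 0 CPM in Cd209a cells and 1180.1, 774, 924 and 615 CPM in type 1 cells. Zeb2 and Irf8 separated the classes in every library, whereas Itgam had 1 UMI in each class in 16-week db/db. Wdfy4, needed for cross-presentation, was at 16.5, 45.6, 122 and 36.4 CPM against 433, 419, 248 and 615 CPM, and Cst3, which encodes cystatin C, at 2401, 2508, 4802 and 2773 CPM against 15018, 17781, 21007 and 15259 CPM. By size, the 10 genes highest over type 1 cells in HFD were Mgl2, Clec10a, Wfdc17, Tmem176a, Zeb2, Cybb, Itgam, Tmem176b, Abca9 and Retnla, and the 10 lowest were Irf8, Ifi205, Tlr3, Serpinb6b, Xcl1, Wdfy4, Fmnl2, Sept3, Tbc1d4 and P2ry14.

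Against 1392 HFD macrophages with high MHC class II and C1q, 4.39% of 11144 genes were at least 2-fold higher in Cd209a cells and 11.3% lower. Of the 10 genes of conventional dendritic cell identity, all measured, 6 were higher and none lower (median log2 ratio 1.68). In WT 3 of 7 were higher and 1 lower (median 0.83), and in 8-week db/db 4 of 9 were higher and none lower (0.94). In 16-week db/db none of 6 was higher and 4 were lower (-1.35), with 11 UMIs of the list in members. This separation was thus not seen in every library. The share of all genes past 2-fold within a single library was counted for HFD only. The counts of the other libraries therefore have no background beside them. Of 18 receptors of monocyte-derived cells and macrophages measured in HFD, none was higher and 12 were lower (median -2.32). Members and macrophages had been split on C1q, a macrophage marker, so that count is not an independent check. Apoe, the lipid carrier abundant in tissue macrophages, stood at 149, 509, 60.8 and 316 CPM in members and 12603, 11359, 7841 and 7622 CPM in macrophages, and 59 of the 67 Apoe UMIs of 8-week db/db members lay in 1 cell. Pf4, a platelet factor gene of resident macrophages, stood at 0, 60.8, 0 and 24.3 CPM against 1998, 1974, 1717 and 678 CPM. Both genes thus lay far below the macrophage level in members of every library.

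By size, the genes highest over HFD macrophages were Klrb1b and Klrd1, lectin-like receptors best known from NK cells, Wnt11, a Wnt ligand, Plbd1, Dpp4, Napsa, Upb1, Ltb4r1, Gm15987 and Itgb7, while Trem2, Apoe, Pf4, Cd63, Gpnmb, Pmp22, Ms4a7, Pld3, Slco2b1 and Folr2 were lowest. Wnt11 stood at 281, 258, 60.8 and 134 CPM in members, at most 6.38 CPM in macrophages and 0 in T cells of all 4 libraries. Napsa, an aspartic protease gene of dendritic cells and some monocytes, stood at 322, 312, 122 and 285 CPM against 14.1, 25.9, 65.4 and 19.2 CPM in macrophages. Plbd1 stood at 454, 357, 486 and 522 CPM against 72.4, 28.2, 20.2 and 32.6 CPM, but was higher still in type 1 cells (802, 767, 1014 and 876 CPM), so it marked both dendritic classes.

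Against 42 HFD monocytes, 7.04% of 2186 genes were at least 2-fold higher in Cd209a cells and 12% lower. Of 18 measured monocyte genes none was higher and 14 were lower (median log2 ratio -2.24), although the monocyte class was itself picked on Ly6c2, Plac8 and Chil3 of that list. Ccr2, which these monocytes and type 2 dendritic cells share, stood at 487, 137, 486 and 570.4 CPM in members and 169.7, 87.7, 85.0 and 185 CPM in macrophages. Thbs1, thrombospondin, was at 8.25, 15.2, 0 and 6.07 CPM in members against 2573, 3356, 58.9 and 948 CPM in monocytes, and Chil3 had no UMI in any member. The monocyte class differed in makeup between libraries, since its neutrophil markers summed to 154, 34126, 6124 and 174 CPM and its B cell markers to 26914, 48.2, 157 and 181 CPM. The genes highest over monocytes were Mgl2, Mrc1, Clec10a, Tnip3, Klrb1b, Retnla, Slamf7, Ciita, Wnt11 and Avpi1, and among the lowest were Thbs1, Chil3, Vcan, Plac8, Hp, Ly6c2, Ace, Gngt2 and F10.

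**Figure D2:**
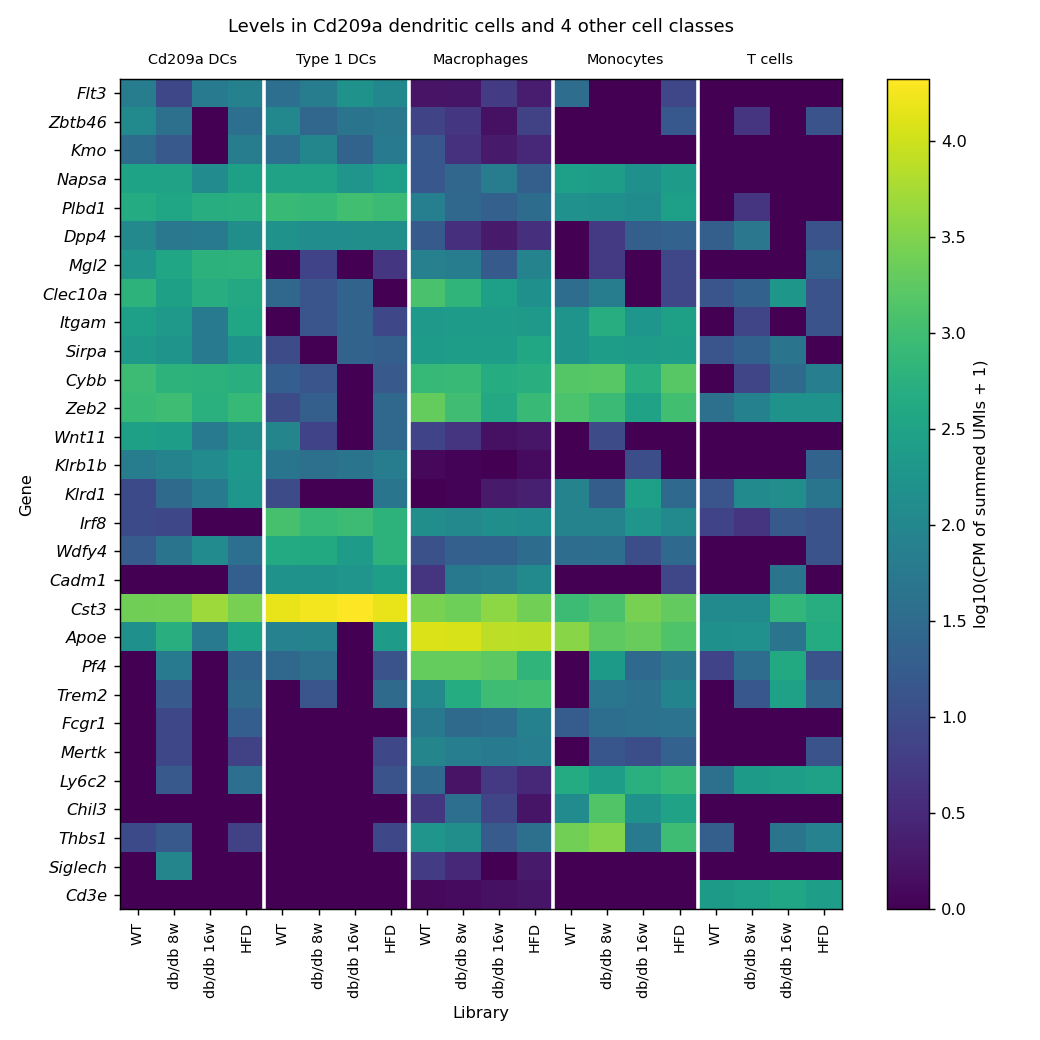
Levels of 29 genes (rows) in Cd209a dendritic cells, type 1 dendritic cells, MHC-II high macrophages, monocytes and T cells of the 4 libraries (columns); colour is log10 of CPM + 1 of the summed UMIs. Mgl2, Itgam, Cybb and Zeb2 stand out in Cd209a over type 1 cells, Irf8, Wdfy4 and Cst3 in type 1 cells, and Apoe, Pf4 and Trem2 in macrophages.

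The lectins of type 2 dendritic cells were carried at different levels in the libraries. Mgl2, which binds galactose-type sugars and marks tissue type 2 dendritic cells, had 22, 45, 10 and 103 UMIs in WT, 8-week db/db, 16-week db/db and HFD members, or 182, 342, 608 and 625 CPM. It was seen in 4 of 11, 10 of 17, 2 of 3 and 20 of 36 members, and after thinning in 1 of 11, 4 of 15, 2 of 3 and 16 of 36. All 3 obese libraries lay above WT, with log2 ratios of 0.88 (0.15 to 1.72), 1.69 (0.50 to 2.88) and 1.73 (1.11 to 2.52). In 8-week db/db 22 of the 45 UMIs and in 16-week db/db 8 of the 10 lay in 1 cell, and without the cell with most Mgl2 UMIs the log2 ratios were 0.29, 0.06 and 1.74. In macrophages of the same libraries Mgl2 stood at 74.7, 63.2, 15.8 and 84.0 CPM, so it was not ordered that way there. Its neighbour Clec10a ran from 611 CPM in WT to 289, 486 and 407 CPM, with log2 ratios of -1.05, -0.32 and -0.57, and was higher in WT macrophages (1195 CPM) than in any member group. Mgl2 lies at chr11:70130329-70137550 and Clec10a at chr11:70156197-70170834, both on the plus strand of GRCm38. They share 270 of 2205 windows of 50 bases in Mgl2 (12.2%) and 270 of 3181 in Clec10a (8.49%), and whether the captured 3′ ends lie in those windows was not tested, while Cd209a shared none of 1677 windows with the other Cd209 genes.

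Across 19 other C-type lectins, 8 could be compared between 8-week db/db and WT, where 5.22% of 1723 genes were at least 2-fold higher and 7.84% lower. Among the 8 lectins none was higher and 1 lower, with a median log2 ratio of 0.53. In 16-week db/db, where 9.76% of 881 genes were higher and 39.8% lower, 1 of 5 lectins was higher and 1 lower. In HFD, where 7.4% of 1945 genes were higher and 11.5% lower, 2 of 7 were higher and 1 lower, with a median of 0.65. The median over all compared genes was -0.01, -0.54 and -0.06, so the 16-week db/db members, with few UMIs, ran low for genes at large. In the lists below, counts of lower genes in 16-week db/db stand against that 39.8%. In several of those lists, some of the genes compared had no UMI in 1 library of the pair. Clec4b1, a dendritic cell lectin, stood at 264, 258, 243 and 419 CPM, Mrc1, the mannose receptor, at 347, 517, 243 and 352 CPM, and Cd209d at 182, 258, 60.8 and 48.5 CPM.

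Of the 17 type 2 genes as a list, none of 10 was higher and 1 lower in 8-week db/db, 2 of 9 higher and 4 lower in 16-week db/db, and 3 of 11 higher and 4 lower in HFD. Their summed level was 4571, 4651, 3039.5 and 3957 CPM. The log2 ratio of that sum to WT was 0.03 in 8-week db/db, -0.59 in 16-week db/db and -0.21 in HFD, while single genes differed more. Irf4, a factor of type 2 dendritic cell maturation, was at 173, 137, 122 and 42.5 CPM, with a log2 ratio of -1.80 in HFD (-3.51 to -0.74). Klf4, a factor of one subset of these cells, was at 215, 159.6, 669 and 716 CPM, with a log2 ratio of 1.69 in HFD (1.12 to 2.41), and was seen in 35 of 36 HFD members against 9 of 11 in WT, or 29 of 36 against 4 of 11 after thinning. It was also high in HFD type 1 cells (910.5 CPM), so the HFD level of Klf4 was not limited to Cd209a cells.

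A pair of NK-type receptors were high in HFD members. Klrd1, the CD94 subunit of inhibitory receptors, had 1 UMI in WT, 4 in 8-week db/db, 1 in 16-week db/db and 31 in HFD (8.25, 30.4, 60.8 and 188 CPM), a log2 ratio of 3.44 in HFD (1.93 to 9.86). It was seen in 17 of 36 HFD members, and in 13 of 36 after thinning, against 0.507% of HFD macrophages, 3 of 44 type 1 cells and 1 of 20 T cells after thinning. Klrb1b, an inhibitory lectin-like receptor, stood at 66.0, 83.6, 122 and 200.3 CPM, with an HFD log2 ratio of 1.47 (0.46 to 2.93), and at most 0.319 CPM in macrophages. The T and NK marker list as a whole summed to 8.25, 182, 0 and 121 CPM in members against 3249, 3599, 3147 and 2919 CPM in T cells, and 6 of its 15 genes, Cd3e among them, had no UMI in any member.

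Il1b, the gene of the inflammatory cytokine interleukin-1β, was the most abundant cytokine transcript of these cells, and its level differed widely between libraries. Members held 497 Il1b UMIs in WT, 1031 in 8-week db/db, 4 in 16-week db/db and 154 in HFD, or 4100.3, 7835, 243 and 935 CPM. It was seen in 10 of 11, 15 of 17, 1 of 3 and 25 of 36 members, with medians of 20.3, 77.1, 0 and 8.16 and maxima of 102, 142, 8.73 and 40.4 per 10000 UMIs. The cells overlapped, but the typical 8-week db/db member lay above and the typical HFD member below the typical WT member. The log2 ratio to WT was 0.93 in 8-week db/db (0.78 to 1.09) and -2.12 in HFD (-2.40 to -1.87). Other cells of these libraries followed a like order. Il1b stood at 2362, 3408, 138 and 223 CPM in macrophages and 673, 2044, 22.5 and 365 CPM in type 1 dendritic cells. In the monocyte class, whose makeup differed between libraries, it stood at 1527, 8061, 324 and 1034 CPM. The part that these library-wide levels had in the members' values was not tested.

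The 21 cytokine genes summed to 5198 CPM in WT, 9059 in 8-week db/db, 243 in 16-week db/db and 1457 in HFD members. Of 5 compared, none was at least 2-fold higher or lower in 8-week db/db, 5 were lower in 16-week db/db and 4 lower in HFD. In 16-week db/db, where 39.8% of all compared genes were lower, 4 of the 5 had no UMI in 1 library of the pair. With such zeros set at 3 UMIs, the median log2 ratio there moved from -4.49 to -0.22. The summed level differed from WT by a log2 ratio of 0.80 in 8-week db/db (0.66 to 0.94) and -1.84 in HFD (-2.06 to -1.62). Macrophages summed to 4530.5, 5747, 498 and 814 CPM and type 1 cells to 1134, 2585, 248 and 653 CPM. Tnf was at 215, 304, 0 and 42.5 CPM and Il6 at 165, 251, 0 and 18.2 CPM, with HFD log2 ratios of -2.10 and -2.63. Tgfb1, which encodes the regulatory cytokine TGF-β1, was the cytokine that did not follow, at 215, 152, 0 and 339.8 CPM. Ifnb1, the type I interferon gene, had 17 UMIs in WT members, 1 in 8-week db/db and none in the other libraries.

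Chemokines summed to 8885, 6596, 729 and 2039 CPM in members, and the log2 ratio of 8-week db/db to WT, -0.43, turned to 0.14 when the member with most UMIs was left out of each library. Of 10 compared in 8-week db/db, 1 was higher and 2 lower (median log2 ratio -0.31), all 8 were lower in 16-week db/db, and of 9 in HFD none was higher and 6 were lower (median -2.37). In 16-week db/db 6 of the 8 had no UMI in 1 library of the pair. With such zeros set at 3 UMIs, the median there moved from -5.68 to -1.71. In macrophages the same list ran at 27018, 34305, 3641 and 7472 CPM and in the monocyte class at 9400.1, 11377, 2993 and 3581 CPM, with WT over HFD over 16-week db/db in both. In type 1 cells it ran at 479, 1148, 293 and 676 CPM and in T cells at 940.2, 2264, 5191 and 3854 CPM, with HFD over WT. Ccl4, a CC chemokine that attracts leukocytes, had 414, 122, 0 and 14 UMIs, or 3416, 927, 0 and 85.0 CPM, with log2 ratios of -1.87 in 8-week db/db (-2.18 to -1.59) and -5.17 in HFD (-6.21 to -4.57), though 214 of the 414 WT UMIs lay in 1 cell. Cxcl2, a neutrophil attractant, was at 1394, 1649, 0 and 322 CPM and Cxcl10, an interferon-induced ligand of CXCR3, at 1039.5, 737, 0 and 54.6 CPM. Ccl6 and Ccl9, which myeloid cells express at rest, stood at 602, 494, 243 and 655 CPM and at 825, 646, 365 and 613 CPM, without the gap between WT and HFD. Single cells set other values, since 85 of 102 Ccl5 UMIs in WT and 131 of 133 Cxcl1 UMIs in 8-week db/db lay in 1 cell each.

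Ccr7, the chemokine receptor of mature dendritic cells, was seen in few HFD members. It had 66, 68, 0 and 10 UMIs, or 545, 517, 0 and 60.7 CPM, in 5 of 11, 10 of 17, 0 of 3 and 5 of 36 members. After thinning it was seen in 3 of 11, 6 of 15, 0 of 3 and 2 of 36 members, so the order held at equal depth in that draw. In WT 34 of the 66 Ccr7 UMIs lay in 1 cell. The HFD log2 ratio was -2.97 (-4.29 to -2.20), and type 1 cells stood at 221, 109.6, 0 and 127 CPM and macrophages at no more than 12.8 CPM. Ccl22, a chemokine of mature dendritic cells that attracts regulatory T cells, had 36, 62, 0 and 3 UMIs (297, 471, 0 and 18.2 CPM), and 41 of the 62 in 8-week db/db came from 1 cell. Of the 20 genes of this list, 7 were compared in 8-week db/db with none higher and 1 lower, 6 in 16-week db/db with all lower, and 6 in HFD with 4 lower (median log2 ratio -2.98). Summed, they stood at 3449, 3572, 547 and 1049.9 CPM. Fscn1, fascin, a defining gene of mature dendritic cells, was seen in only 2 members, both from HFD.

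Maturation genes were seen in overlapping sets of members. Over all 67 members, Ccr7 and Ccl22 were found together in 8, Ccr7 alone in 12 and Ccl22 alone in 3. Ccr7 and Mgl2 were found together in 10, Ccr7 alone in 10, Mgl2 alone in 26 and neither in 21. Ccr7 and Cd80 were together in 9, Ccr7 alone in 11 and Cd80 alone in 7. These counts come from cells of different depth and library and are given with no test.

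Costimulatory and inhibitory ligands, the surface signals that dendritic cells give to T cells, summed to 1691, 1999, 486 and 849.6 CPM. Of 6 compared in 8-week db/db 1 was higher and none lower, all 3 were lower in 16-week db/db, and of 6 in HFD 2 were lower and none higher. Cd86 stood at 140.3, 190.0, 0 and 78.9 CPM, Cd80 at 74.3, 175, 0 and 30.3 CPM, and Icosl at 198, 114, 0 and 18.2 CPM. Tnfsf9, the ligand of 4-1BB, was at 685, 927, 304 and 115 CPM. Cd274, which encodes PD-L1, had no UMI in WT and 16-week db/db members and was at 106 CPM in 8-week db/db and 6.07 CPM in HFD.

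**Figure D3:**
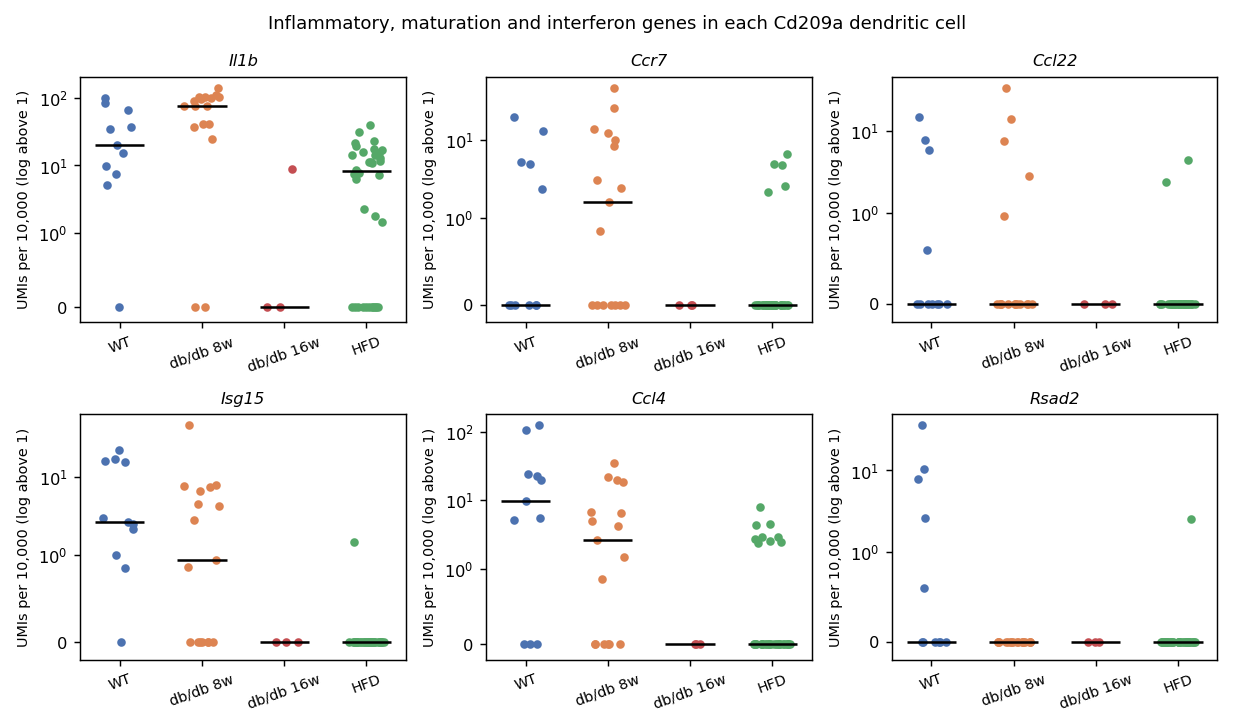
Il1b, Ccr7, Ccl22, Isg15, Ccl4 and Rsad2 in each Cd209a dendritic cell of the 4 libraries, in UMIs per 10000 (log axis above 1); each point is a cell and the bar is the median over cells. Il1b medians are 20.3 in WT, 77.1 in 8-week db/db, 0 in 16-week db/db and 8.16 in HFD, and Rsad2 lies above 0 in 5 WT cells and 1 HFD cell.

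Type I interferon response genes, the antiviral genes that interferon signalling switches on, were highest in WT members. The 19 genes summed to 5404 CPM in WT, 2439 in 8-week db/db, 790.3 in 16-week db/db and 1723 in HFD, with log2 ratios to WT of -1.15 (-1.34 to -0.95) in 8-week db/db and -1.65 (-1.85 to -1.45) in HFD. Of 6 compared, none was higher and 3 were lower in 8-week db/db (median -1.54), 6 lower in 16-week db/db, and 4 lower in HFD (median -4.48). Macrophages held 4109, 1327, 732 and 835 CPM and type 1 cells 2084, 812, 316 and 634 CPM, with WT highest in both. Monocytes held 2642, 1814, 1315 and 3320 CPM and T cells 435, 334, 224 and 958 CPM, with HFD highest. Rsad2, Ifit1 and Isg15 are shown by the stretch of promoter in which the core of the interferon-stimulated response element (GAAA, then 2 bases of any kind, then GAAA) was found, since these 3 genes were among the 5 that led the lower genes of HFD members. In Isg15 a further match overlaps the marked one, starting within the capitals and ending in the lower-case letters. The capitals mark the first match of the motif on either strand in the RefSeq sequence of GRCm38.p6, written along the strand of the gene, for Rsad2 at chr12:26456553-26456582 (gene on the minus strand, 120 bases before the start), Ifit1 at chr19:34640775-34640804 (plus strand, 104 bases before) and Isg15 at chr4:156200877-156200906 (minus strand, 78 bases before).
Rsad2: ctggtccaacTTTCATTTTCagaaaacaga
Ifit1: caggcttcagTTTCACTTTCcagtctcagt
Isg15: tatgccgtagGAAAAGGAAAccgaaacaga

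In the 250 bases before the start, that motif was found on either strand in 7 of the 14 list genes with a promoter sequence (50%), in 1 of 12 chemokine genes (8.33%), 1 of 16 cytokine genes (6.25%), none of 12 mature dendritic cell genes and 936 of all 27025 genes with a promoter sequence (3.46%). A gene was counted if any of its promoters held the motif. A match describes letters and is not a bound site. Isg15, a ubiquitin-like modifier, had 92, 92, 0 and 1 UMIs in 10 of 11, 10 of 17, 0 of 3 and 1 of 36 members (759, 699, 0 and 6.07 CPM), while macrophages stood at 363, 263, 4.36 and 32.5 CPM. Rsad2, which encodes the antiviral enzyme viperin, had 77 UMIs in WT, 0 in both db/db libraries and 1 in HFD, and 62 of the 77 lay in 1 WT cell. Ifit1, an antiviral RNA-binding protein, had 61, 12, 0 and 1 UMIs, 45 of the 61 in 1 cell. After thinning Isg15 was seen in 4 of 11 WT, 9 of 15 8-week db/db, 0 of 3 and 0 of 36 HFD members. The Isg15 gap between WT and HFD was thus spread over cells, whereas Rsad2 and Ifit1 rested mainly on 1 WT cell, the same for both genes. Ifitm3, the most abundant of the list, stood at 2327, 1398, 669 and 1444 CPM, with log2 ratios of -0.73, -1.78 and -0.68.

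NF-κB response genes, which include inhibitors induced by the pathway itself, summed to 10610, 10761, 1337 and 5079 CPM in members. Of 14 compared in 8-week db/db 1 was higher and none lower, 10 of 11 were lower in 16-week db/db, and 7 of 14 were lower and none higher in HFD (median log2 ratio -0.95). Nfkbia, the inhibitor IκBα, stood at 3218, 3861, 426 and 740.4 CPM, Tnip3 at 1469, 1816, 60.8 and 661 CPM, and Cd83 at 1353, 1398, 122 and 498 CPM. Rel, the NF-κB subunit of lymphoid and dendritic cells, was at 982, 1489, 547 and 1384 CPM and did not share the HFD gap. Macrophages summed to 10428, 9997, 1114 and 2946 CPM and type 1 cells to 5209, 4784, 924 and 2728 CPM.

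Immediate-early and heat-shock genes, which respond within minutes and also to tissue dissociation, summed to 17515, 12326, 12462 and 14073 CPM. Of 21 compared genes in each library, none was higher and 5 lower in 8-week db/db, 1 higher and 13 lower in 16-week db/db, and 3 higher and 4 lower in HFD. Egr1 stood at 182, 76.0, 0 and 1111 CPM, with log2 ratios of -1.16 in 8-week db/db (-2.50 to -0.12) and 2.55 in HFD (1.97 to 3.32). It was seen in 28 of 36 HFD members and 8 of 11 WT members, or 23 of 36 and 2 of 11 after thinning, and T cells stood at 294, 165, 104 and 2146 CPM. Fosb was at 479, 334, 60.8 and 1232 CPM, whereas Hspa1b, an inducible HSP70 chaperone, was at 1411, 448, 2675 and 72.8 CPM in members and 4876, 1640.2, 918 and 34.8 CPM in macrophages. HFD members thus stood above WT members for Egr1 and Fosb and below them for Hspa1b, which was also lower in HFD macrophages. The part that these genes' levels had in the inflammatory values was not tested.

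**Figure D4:**
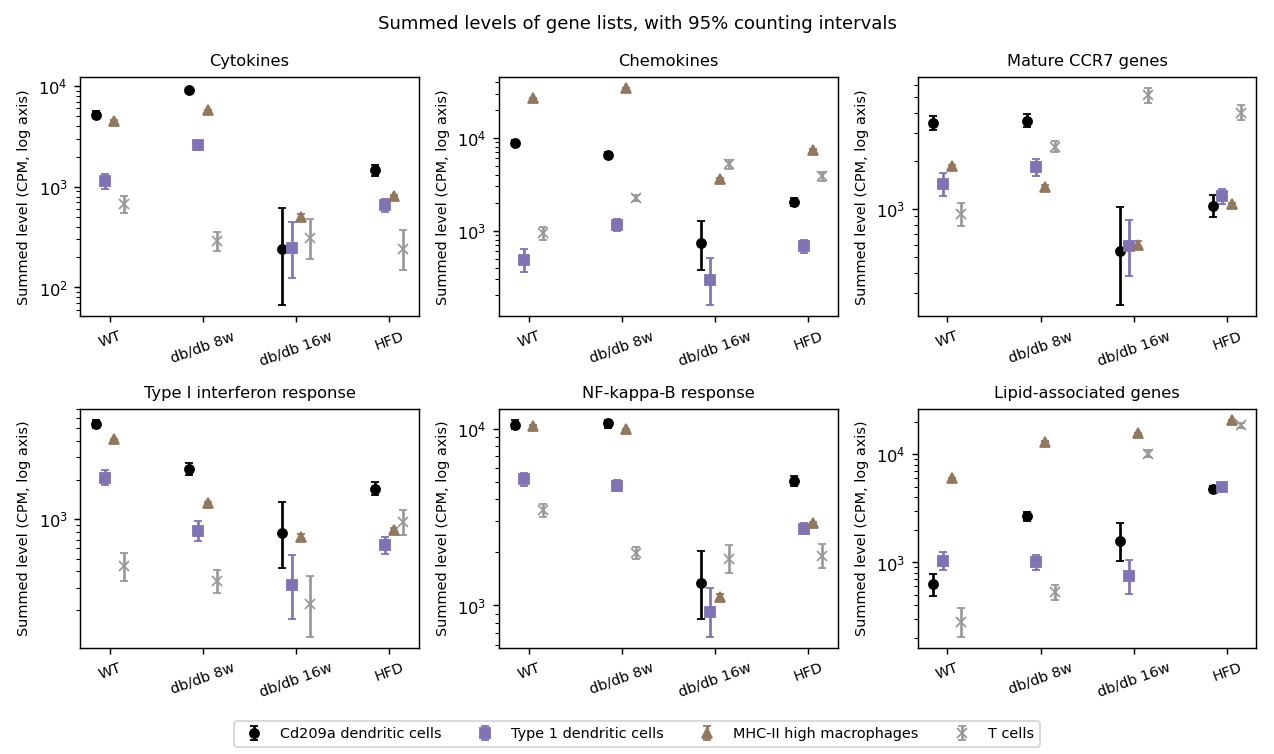
Summed level of 6 gene lists, in CPM on a log axis, in Cd209a dendritic cells, type 1 dendritic cells, MHC-II high macrophages and T cells of each library, with exact 95% Poisson intervals. In Cd209a cells the cytokine sum is 5198 in WT, 9059 in 8-week db/db, 243 in 16-week db/db and 1457 in HFD, the NF-κB sum is 10610 in WT and 5079 in HFD, and lipid-associated genes run from 627 in WT to 4800.2 in HFD, with T cells at 18519 in HFD.

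Antigen processing genes outside the rule, which load peptides on MHC molecules, differed less. The 19 genes summed to 11270, 7759, 8024 and 8842 CPM, with log2 ratios to WT of -0.54, -0.49 and -0.35. None of 14 was higher and 4 were lower in 8-week db/db, 1 of 12 higher and 3 lower in 16-week db/db, and 1 of 15 higher and 2 lower in HFD. H2-DMa, the peptide exchange factor of MHC class II, stood at 875, 699, 1155 and 740.4 CPM, against 329, 306, 423 and 309 CPM in macrophages. Among class I genes, B2m was at 1683, 722, 486 and 886 CPM and H2-D1 at 2615, 1505, 1459 and 1189 CPM, higher in WT than in the 3 obese libraries, as B2m was in macrophages (3131, 1061, 1229 and 1221 CPM). Ciita, the master regulator of MHC class II genes, stood at 41.3, 22.8, 0 and 139.6 CPM.

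Conventional dendritic cell identity genes summed to 2475, 2698, 669 and 1669 CPM, with 1 of 5 higher and none lower in 8-week db/db, none higher and 3 of 4 lower in 16-week db/db and 2 of 7 lower in HFD, and Cd83 and Traf1 of that list also belong to the activated state. Macrophages summed to 2352, 2394, 897 and 1010 CPM. The sum therefore did not separate these classes in WT and 8-week db/db. In 16-week db/db, with 11 UMIs of the list in members, macrophages stood higher. Monocyte genes summed to 5767, 3975, 3283 and 6524 CPM, with 5 of 8 lower in 8-week db/db, 5 of 8 in 16-week db/db and 1 of 10 in HFD. Among them Ccr2 had a log2 ratio of -1.76 in 8-week db/db (-2.68 to -1.05), and Plac8, Fn1 and Lyz2 stood at 429, 76.0, 0 and 109 CPM, 767, 266, 0 and 455 CPM, and 1543, 1406, 1216 and 2834 CPM. S100 proteins and annexins had 1 of 10, 4 of 9 and 2 of 10 genes higher and none lower, while glycolysis genes had 3 of 11 lower in 8-week db/db, 1 of 7 higher and 1 lower in 16-week db/db, and 3 of 12 lower in HFD.

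Lipid-handling genes of lipid-associated macrophages were higher in members of the obese libraries than in WT members. Type 1 dendritic cells of the HFD library and T cells of the 16-week db/db and HFD libraries held them too. The 9 genes summed to 627, 2667, 1580.5 and 4800.2 CPM in members, with log2 ratios to WT of 2.09, 1.33 and 2.94 (2.60 to 3.30 in HFD), and 4 of 6 were higher and none lower in 8-week db/db, 1 of 2 in 16-week db/db and 6 of 8 in HFD. T cells, in which this program is not known, held 281, 533, 10188 and 18519 CPM of the same genes, more than members in 16-week db/db and HFD. Macrophages held 6004, 13104, 15656 and 20939 CPM. Type 1 dendritic cells held 1033, 999, 744 and 4944 CPM, so the HFD level was not limited to Cd209a cells. The 21 HFD T cells also held 4027 CPM of endothelial and 2354 CPM of stromal markers, against 818 and 642 CPM in HFD type 1 cells. Whether T cells show the level of free RNA was not tested. In 8-week db/db, where T cells stayed low at 533 CPM, the level in members rested on few cells.

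Fabp4, a fatty acid chaperone abundant in endothelium and adipocytes, had 2, 69, 1 and 398 UMIs in members (16.5, 524, 60.8 and 2415 CPM) against 12.8, 134, 2506 and 14019 CPM in T cells. It was seen in 35 of 36 HFD members, the 5 called as doublets held 258 of the 398 UMIs, and 57 of the 69 in 8-week db/db lay in 1 cell. Cd36, the fatty acid translocase, stood at 24.8, 228, 0 and 674 CPM in members and 12.8, 37.9, 1849.6 and 2412 CPM in T cells, with 75 of 111 HFD UMIs in the called doublets. Fabp4 and Cd36 of HFD members therefore lay below the level of T cells from the same library. Lpl, lipoprotein lipase, had 3, 143, 18 and 73 UMIs (24.8, 1087, 1094 and 443 CPM) against 6.40, 51.6, 1879 and 496 CPM in T cells, so in 8-week db/db it stood above T cells, with 122 of its 143 UMIs in 2 cells. Endothelial markers went with these genes, at 8.25, 122, 60.8 and 686 CPM for the list of 12 in members, 7.29, 34.5, 177 and 726 CPM in macrophages and 64.0, 82.6, 612 and 4027 CPM in T cells, and none of the 12 was at 0 in every library's members. Cldn5, Pecam1 or Cdh5 was seen in 0, 1, 1 and 13 members, and 11 of 12 Cldn5 UMIs lay in the called doublets. The part of this RNA in the members' lipid values was not tested.

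Retnla, a secreted gene of alternatively activated myeloid cells, stood at 215, 783, 0 and 983 CPM, but 147 of 162 HFD UMIs and 97 of 103 8-week db/db UMIs lay in 2 cells each, and only 2 of the 162 lay in called doublets. High Retnla was therefore found in few members.

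Proliferation was carried by single cells. Cell cycle genes summed to 685, 2272, 5167 and 898 CPM, with 3 of 5 compared genes higher and 1 lower in 8-week db/db, 2 of 3 higher in 16-week db/db and none of 3 past the limit in HFD. The medians over members were 7.70, 8.20, 0 and 2.56 per 10000 UMIs, and 1 cell held 119 of 299 cell cycle UMIs in 8-week db/db, all 85 in 16-week db/db and 89 of 148 in HFD, where that cell was a called doublet. Mki67, the proliferation antigen, had 8, 65, 16 and 23 UMIs in 4, 9, 1 and 5 members, with 50 of the 65 in 2 cells. The median was thus close to WT in 8-week db/db and below it in the other 2, while the sums followed 1 or 2 cells per library.

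**Figure D5:**
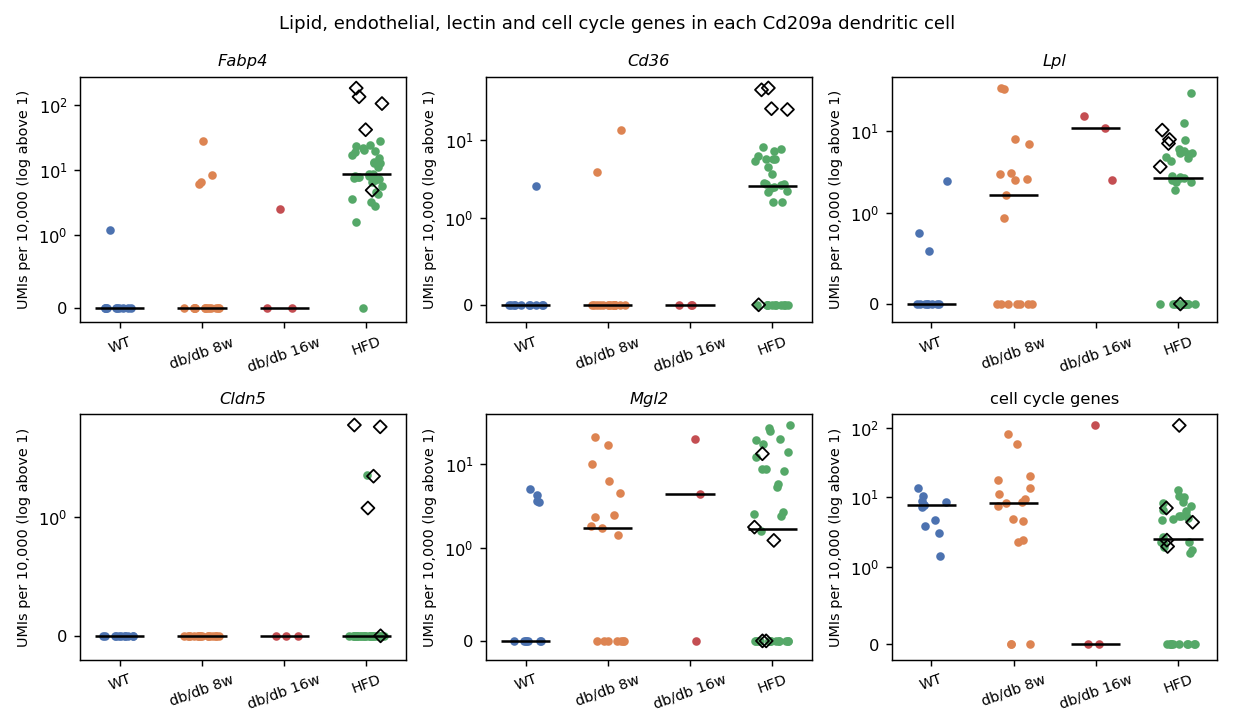
Fabp4, Cd36, Lpl, Cldn5, Mgl2 and the sum of cell cycle genes in each Cd209a dendritic cell, in UMIs per 10000 (log axis above 1), with open diamonds for the 5 HFD members called as doublets and bars for medians. The highest 4 Fabp4 values in HFD belong to called doublets, 1 cell stands apart for the cell cycle genes in 16-week db/db, and Mgl2 is seen in 20 of 36 HFD members.

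Markers of other cell types were low in members. B cell markers summed to 116, 68.4, 60.8 and 146 CPM, neutrophil markers to 0, 7.60, 0 and 54.6 CPM, mast cell and basophil markers to 0, 15.2, 0 and 18.2 CPM, brown adipocyte markers to 8.25, 22.8, 0 and 146 CPM, and stromal markers outside the rule to 248, 182, 60.8 and 716 CPM. Siglech, a defining gene of plasmacytoid dendritic cells, had 12 UMIs, all in 1 8-week db/db member. That member held the lowest MHC class II (61.8 per 10000 UMIs) and no UMI of Mgl2, Clec10a, Ccr2, Itgam or Sirpa. Its 1 UMI of Kmo placed it among the 8-week db/db members with a lineage gene, so the name is uncertain for that cell. Plasmacytoid markers as a list summed to 264, 479, 60.8 and 279 CPM in members. HFD members held the most stromal, adipocyte and endothelial RNA of the 4 groups.

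Across all genes with at least 20 UMIs over the pair of libraries compared, a rule named those whose counting interval left out 0 and whose level in members exceeded that in all other quality-passing cells. In 8-week db/db 114 of 1723 genes were higher and 177 lower than in WT by the interval, of which 93 and 152 met the second condition. In 16-week db/db the counts were 71 and 144 of 881, of which 51 and 124 did, and in HFD 179 and 275 of 1945, of which 105 and 251 did. Of 876 genes measured in all 3 obese libraries, 7 were higher in each and 40 lower in each, comparisons that share the WT members, and 3 and 32 also met the second condition. The 3 higher were Mgl2, which in the db/db libraries rested largely on 1 cell each, Clic1, an intracellular channel protein, at 173, 410.4, 669 and 364 CPM, and Tmsb4x, which encodes the actin-binding thymosin β4, at 15889.6, 18649, 25410.3 and 21216 CPM. The other 4 were Lpl, Tmed10, Vim and Actb, which stood higher in other cells.

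The first 10 of the 32 lower genes were Rsad2, Ifit2, Ifit1, Ccl4, Ccl5, Fam107b, Ifi203, Gpr132, H2-T23 and Ccnd2. Interferon-induced genes and CC chemokines thus led the set, and of these Rsad2, Ifit1, Ccl4 and Ccl5 held more than 50% of their WT UMIs in 1 cell. It was the same WT cell for all of them. That cell also held the most WT UMIs of Isg15 (38 of 92), Ccr7 (34 of 66) and Il1b (145 of 497). The WT levels of these genes are therefore not separate observations. Without the member with most UMIs in each library, Ccl5 in 8-week db/db turned to a log2 ratio of 0.87. Ccnd2, a D-type cyclin, stood at 519.8, 266, 0 and 152 CPM in 10, 10, 0 and 13 members, Gpr132, a receptor for oxidised fatty acids and lactate, at 404, 182, 0 and 169.9 CPM, and Fam107b at 421, 175, 0 and 78.9 CPM. H2-T23, a non-classical MHC class I gene, was at 248, 60.8, 0 and 121 CPM. Plac8, Hsph1, Ifi27l2a, B2m and Fn1 were lower in all 3 as well, but stood higher in other cells than in WT members.

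By library, the genes leading upward in members were the histone and cycle genes Hist1h1b, Hist1h2ap, Top2a, Hist1h2ae and Stmn1 in 8-week db/db, Hist1h2ap, Hist1h1b, Hist1h1e, Hist1h1d and Mki67 in 16-week db/db, where 77 of 78 Hist1h2ap UMIs lay in 1 cell and Hist1h1d, Hist1h1e and Mki67 dropped below WT (log2 ratios of -0.97, -1.54 and -2.43) once the cell with most of their UMIs was left out, and Klrd1, Gm34455, Lncpint, Retnla and Dstn in HFD. Leading downward were Rsad2, Ifit2, Ccl4, Ifit1 and Parp14 in 8-week db/db, Ccl4, Il1b, Nfkbiz, Plek and Ppp1r15a in 16-week db/db, and Gm10260, Ccl4, Isg15, Rsad2 and Ifit1 in HFD. Gm10260, a predicted gene, stood at 965, 935 and 608 CPM in the first 3 groups and at 0 in HFD members, and did not pass 0.531 CPM in any HFD class, so its gap was shared by that whole library.

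Both 8-week db/db and HFD members stood higher than WT for 35 genes and lower for 99 of 1574 measured in each, again against the same WT members. Bhlhe40, a transcription factor that restrains IL-10 in myeloid cells, was among the higher ones, at 116, 312, 0 and 261 CPM. Egr1, Il1b, Nfkbia, Tnip3, Tnfsf9, Ccl22 and Hmgb2 stood on opposite sides of WT in these 2 libraries.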

How the data were processed

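Per the labels and methods, brown adipose tissue cells were run on the 10x Genomics Chromium 3′ assay, and the authors deposited raw UMI counts per gene and barcode, aligned to mm10. The submitters' processing notes name Cell Ranger 7.1.0, while the file headers give 6.0.0. These cell-called matrices held 8318, 18306, 6517 and 17440 barcodes and 51357400, 61828295, 28504069 and 57279299 UMIs for WT, 8-week db/db, 16-week db/db and HFD, with median UMIs per quality-passing cell of 6218.5, 3193, 2733 and 5066. Scrublet, run through scanpy 1.11.5, called as doublets 7.37%, 15.4%, 5.57% and 14.2% of quality-passing cells, which were kept, and no correction for free RNA was made.

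The members' counts were summed per library and divided by the summed UMIs, giving CPM. Genes with at least 20 UMIs over both sides were compared as log2 ratios with 10 CPM added to each side, and 2-fold was the limit for a gene counted as higher or lower. Intervals (95%) are exact binomial for shares, exact Poisson for sums and conditional binomial for ratios, the last without the added CPM. With 1 library per group no test was made and no p-value is given. Classes for comparison were type 1 dendritic cells, C1q-positive macrophages with high MHC class II, monocytes (Ly6c2, Plac8 and Chil3 at 5 or more per 10000 UMIs) and T cells (at least 2 UMIs of the CD3 genes Cd3d, Cd3e and Cd3g), all rebuilt from the counts and without Cd209a UMIs. The members and the 30 gene lists were chosen with earlier results of these data known. Genes named outside the lists were the first 10 of the same sign in all 3 obese libraries, the first 5 by interval bound in each library and the first 10 against each class, mitochondrial, ribosomal and sex-linked genes left out. One gene that this rule names is not reported here. Scripts ran in Python 3.11.15 with numpy 2.4.6, scipy 1.17.1, pandas 2.3.3 and matplotlib 3.10.9, and were tested on simulated data. Coordinates come from GENCODE M21 on GRCm38, and promoters from RefSeq on GRCm38.p6. Alternatives changed the Cd209a, depth, doublet, mitochondrial, stromal and scaling limits.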

Additional observations from a re-analysis of the deposited data

Results flagged for a closer look

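Several genes stood on opposite sides of WT in 8-week db/db and HFD members, with counting intervals that left out 0 in both. The log2 ratios to WT in 8-week db/db and HFD were 0.93 and -2.12 for Il1b, 0.30 and -1.14 for Tnip3, 0.91 and -0.91 for Hmgb2, 0.65 and -3.44 for Ccl22, 0.26 and -2.10 for Nfkbia, 0.43 and -2.47 for Tnfsf9 and -1.16 and 2.55 for Egr1. The summed monocyte genes differed by -0.54 and 0.18, and the summed cytokines by 0.80 and -1.84. Each library is a pool of mice, both ratios share the WT members, and the difference between 8-week db/db and HFD was not tested. Of Ccl22 in 8-week db/db, 41 of 62 UMIs came from 1 cell.

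Among barcodes over the mitochondrial limit, which only the alternative with no such limit used, 11 HFD barcodes met every other limit of the rule. None did in the other libraries. They held 1 UMI of Flt3, 21 of Ccr2 and 29 of Mgl2.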

How the results depend on the processing

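No paired analysis was possible because each group held 1 library. The log2 ratio of the HFD to the WT share was 1.83 over quality-passing cells, 0.66 over cells with a Ptprc UMI and -0.47 over cells with high MHC class II and low C1q. With no mitochondrial limit the WT and HFD shares were 0.146% and 0.270%, and the interval of their ratio included equality. The 8-week db/db share lay above WT with at least 1 Cd209a UMI (0.232% against 0.219%) and after thinning (0.163% against 0.152%), and the 16-week db/db share was 0.0171% against 0.168% with at least 3 and 0.154% against 0.219% with at least 1. The interval of the 16-week db/db to WT ratio left out equality with at least 3 Cd209a UMIs, over cells with a Ptprc UMI and over cells with high MHC class II and low C1q, and that of 8-week db/db over the last of these. Of 78 percentages of genes past 2-fold, 63 stayed within 1.5 times. With 50 CPM added in place of 10, 8-week db/db had 2.61% of genes higher and 3.48% lower and HFD 3.5% higher, the percent of genes at least 2-fold lower in HFD than in WT was 6.27, and with at least 50 UMIs 8-week db/db had 3.22% higher. With no minimum, 13.3%, 18.1% and 16.7% were higher in 8-week db/db, 16-week db/db and HFD, and after centring on the median gene 16-week db/db had 21.9% higher. Requiring 10 cells of both classes, chosen after seeing the data, gave 4.64% higher and 3.37% lower against type 1 cells, 1.26% and 3.11% against macrophages and 2.97% and 3.24% against monocytes. The 8-week db/db ratio of summed chemokines, -0.43, became 0.31 with at least 3 Cd209a UMIs and 0.14 without the member with most UMIs, an alternative chosen after seeing the data, which also took Ccl5 in 8-week db/db to 0.87. For Hist1h1d, Hist1h1e and Mki67 in 16-week db/db, at least 3 Cd209a UMIs gave -1.50, -2.22 and -2.70, leaving out the cell with most UMIs of the gene, also chosen after seeing the data, -0.97, -1.54 and -2.43, and leaving out the member with most UMIs -1.55, -2.28 and -2.95. These alternatives leave 1 or 2 cells in 16-week db/db. Of 128 list sums under alternatives 91 held, 35 moved and 2 reversed, and of 1202 gene values 1124, 68 and 10. Members numbered 13, 27, 9 and 58 with at least 1 Cd209a UMI, 10, 11, 1 and 27 with at least 3, and 7, 15, 3 and 24 with stromal genes under 10 per 10000, chosen after seeing the data. Under 5 per 10000 no WT member was left, so no value could be given. In 16-week db/db, with 3 members, 1 UMI is 60.8 CPM.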
